A study of Mus musculus with 20 samples.

Results

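The genes described here are 10 genes of the Wnt/β-catenin pathway that are read as markers of, or signals to, the hepatocytes around the central vein of the liver lobule: the ligands Wnt2, Wnt9a and Wnt9b, the R-spondin Rspo3, the receptor Lgr5, the ubiquitin ligases Rnf43 and Znrf3, the scaffold Axin2, the transcription factor Tbx3 and the enzyme Glul. Members were the rows whose gene symbol was 1 of these 10 names, and all 10 were found among the 37681 genes listed in each table. All 10 were also among the 15578 genes tested, a gene being tested when 5 or more samples of any 1 table held 5 or more of its reads. Liver RNA came from 10 male C57/BL6 mice (12 weeks old, named C57/B6J in the growth notes), of which 5 received IL-1β, a cytokine that starts inflammatory signaling, by intraperitoneal injection at 20 µg/kg, and 5 received saline and are called untreated. Livers were taken 4 h later, and 1 Illumina and 1 Ion Torrent library was made from the RNA of each mouse. Reads were aligned with STAR, GSNAP or STAR followed by Bowtie2, which gave 6 tables of counts. The Illumina STAR table is the main one below and the other 5 serve as a check. Its total count per library was 10568530 to 11046256. With Ion Torrent and STAR the total was 12199528 to 12723326. Values per mouse are given in the order UNT_9574, UNT_9575, UNT_9576, UNT_9580 and UNT_9584 for the untreated and ILB_9577, ILB_9578, ILB_9579, ILB_9582 and ILB_9583 for the treated mice.

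Hepatocytes differ along the axis from portal vein to central vein. Endothelial cells of the central vein and nearby sinusoids secrete Wnt ligands and Rspo3, which keep β-catenin active in the hepatocytes next to them. Wnt ligands bind Frizzled receptors, and active β-catenin works with TCF/LEF factors at target genes. R-spondins bind Lgr4, Lgr5 and the ligases Rnf43 and Znrf3, which otherwise remove Frizzled receptors from the cell surface. Axin2, Lgr5, Rnf43 and Znrf3 are themselves targets of the pathway, and Glul and Tbx3 are expressed in the hepatocytes closest to the central vein. The samples were whole liver, in which fewer cells of a type and less RNA per cell cannot be told apart.

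The promoters of the Wnt ligands are shown because all 3 genes were called lower in the treated livers of the Illumina STAR table, Wnt9b with overlapping groups and a call that other settings lost. RefSeq (table of GRCm38.p6) gave 7 promoters for 6 of the 10 genes, Glul, Wnt2, Wnt9a, Wnt9b, Axin2 and Rnf43, the last with 2. Lgr5, Tbx3, Znrf3 and Rspo3 had no entry. Each window of 250 bases before the RefSeq start matched the NCBIM37 (mm9) genome of the tables at 1 place. The bases printed end where the annotated gene begins. They lie at chr6:17980586-17980695 (minus strand) for Wnt2, chr11:59120182-59120429 (plus strand) for Wnt9a and chr11:103611136-103611385 (minus strand) for Wnt9b. They read 5′ to 3′, with GC boxes (GGGCGG on either strand) in capitals.
Wnt2: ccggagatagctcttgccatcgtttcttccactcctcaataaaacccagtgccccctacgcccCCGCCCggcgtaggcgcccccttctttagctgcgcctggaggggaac
Wnt9a: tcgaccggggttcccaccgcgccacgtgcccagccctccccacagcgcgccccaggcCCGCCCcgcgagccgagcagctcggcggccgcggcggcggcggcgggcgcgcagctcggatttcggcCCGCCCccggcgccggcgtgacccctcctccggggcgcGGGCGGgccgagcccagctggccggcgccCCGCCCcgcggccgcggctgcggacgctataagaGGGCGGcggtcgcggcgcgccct
Wnt9b: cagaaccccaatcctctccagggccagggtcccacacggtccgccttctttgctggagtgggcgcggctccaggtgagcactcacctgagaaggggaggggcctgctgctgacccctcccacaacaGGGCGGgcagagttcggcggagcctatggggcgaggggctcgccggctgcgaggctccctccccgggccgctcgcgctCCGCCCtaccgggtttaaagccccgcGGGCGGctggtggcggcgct
The Wnt9a sequence holds 5 GC boxes, that of Wnt9b 3 and the shorter one of Wnt2 1. A GC box was found in 5 of the 7 windows, against 32.7% of 32851 promoter windows of the same length. Those without one were both windows of Rnf43, which lie wholly inside the gene as annotated on NCBIM37, so they are not bases before its annotated start. TCF/LEF motifs, searched on both strands as CTTTG followed by 2 bases that are each A or T, were found in 0 of the 7 windows and in 14.8% of all windows. The NF-kB consensus was in 0 of the 7 and in 3.90% of all, and the TATA box TATAAA in 0 of the 7 and in 12.4% of all. These are counts of letters in short windows and say nothing of where a factor binds.

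In the untreated livers of the Illumina STAR table, the members covered a wide range of levels. The hepatocyte enzyme Glul was at the top and the ligands Wnt9a and Wnt9b at the bottom. Levels are given as CPM, the counts of a library scaled to a common total after TMM normalization, and between genes only per kb of exon. Glul stood at 232 ± 22.9 CPM per kb (SD, n = 5). Tbx3 followed at 4.59 ± 1.93 CPM per kb and Rnf43 at 3.49 ± 0.897 CPM per kb, and the mice of these neighbours overlapped. Znrf3 stood at 2.0 ± 0.454 CPM per kb and Rspo3 at 1.77 ± 0.290 CPM per kb, which overlapped as well, while the lowest mouse for Rnf43 (2.79 CPM per kb) was above the highest for Znrf3 (2.48 CPM per kb). Axin2, Wnt2 and Lgr5, at 0.936, 0.71 and 0.654 CPM per kb, overlapped from each to the next, and so did Wnt9a and Wnt9b at 0.365 and 0.203 CPM per kb. In this table Rspo3 was thus the most abundant secreted signal of the 10 genes. Its lowest mouse (1.36 CPM per kb) was above the highest for Wnt2 (0.830 CPM per kb). With Ion Torrent and STAR its mean was also above that of Wnt2 (1.72 and 0.992 CPM per kb). There the mice overlapped, the lowest for Rspo3 at 1.18 and the highest for Wnt2 at 1.28 CPM per kb.

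**Figure D1:**
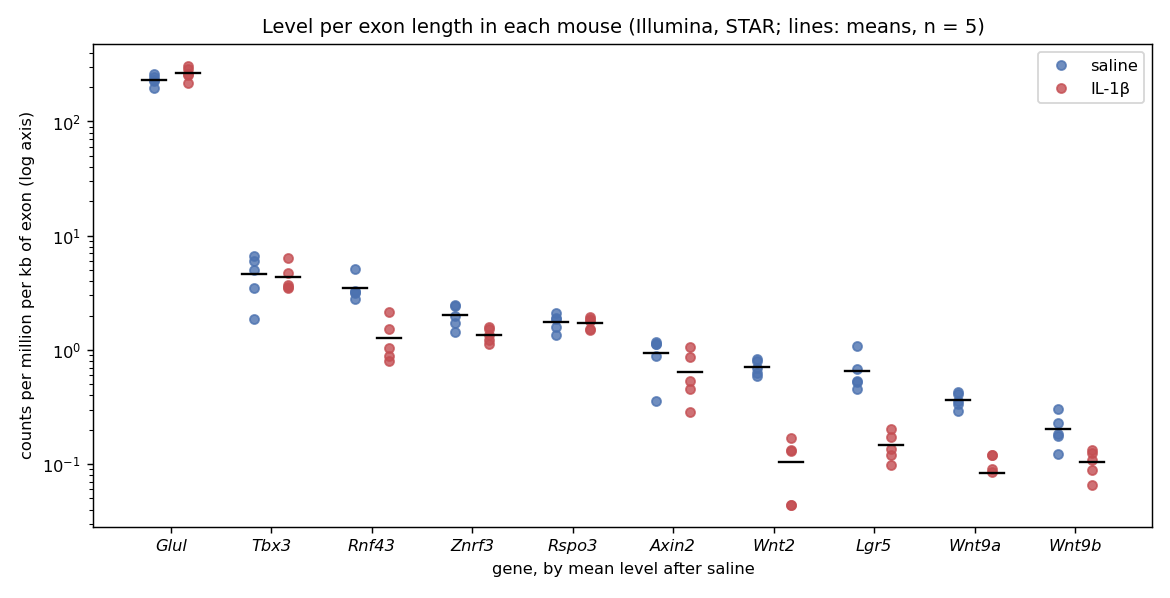
Level of each gene in each mouse of the Illumina STAR table, as CPM per kb of exon on a log axis, for untreated (blue) and IL-1β-treated (red) mice, with lines at the means of 5 mice. Genes run from Glul at 232 to Wnt9b at 0.203 CPM per kb in the untreated mice. The treated mouse with 0 reads of Wnt9a has no point on the log axis but is in the mean.

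Of the 10 genes, 6 were lower in the treated mice of the Illumina STAR table and 0 were higher, at an adjusted p below 0.05 by edgeR's quasi-likelihood test with Benjamini-Hochberg adjustment over all 15578 genes. Over all genes tested, 22.9% were called lower and 22.7% higher, so the background for such a call was high. The genes that fell were the ligands Wnt2, Wnt9a and Wnt9b, the receptor Lgr5 and the ligases Rnf43 and Znrf3. For higher levels the count was also 0 at an unadjusted p below 0.05, and 0 with limma-voom, DESeq2 and the rank-sum test. The last, run on counts without TMM, called 5 of the 10 lower, beside 24.3% of all genes lower and 13.8% higher. The median log2 fold change over the 10 genes was -0.75, and that over all genes tested 0.00. In Wnt2, Wnt9a, Lgr5 and Rnf43 every treated mouse was below every untreated mouse, which held for 16.2% of all genes tested. In all 6 tables the same 4 genes were separated in this way, as were 10.8% of all genes tested.

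Wnt2, a ligand made by liver endothelial cells, had the largest change of the 10. Its level was 1.41, 1.87, 1.80, 1.33 and 1.58 CPM in the untreated mice. In the treated mice it was 0.379, 0.296, 0.0993, 0.0991 and 0.302 CPM. The groups lay far apart on few reads, 92 over the untreated and 12 over the treated mice. Wnt2 had a log2 fold change of -2.70 ± 0.34 (SE, adjusted p = 1.38e-05 by edgeR), which is 6.51-fold lower. The exact 95% interval of the ratio of the summed reads, which covers counting error only, was 0.0736 to 0.270. Of all genes tested, 0.790% stood as low or lower. The Wnt2 gene spans chr6:17938940-17980585 on the minus strand of NCBIM37, with 5 exon blocks.

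Wnt9a, another secreted Wnt ligand (chr11:59120430-59147054, plus strand), was present at 1.41, 1.19, 1.37, 0.977 and 1.11 CPM in the untreated mice. The treated mice had 0.284, 0, 0.397, 0.397 and 0.302 CPM, again with no overlap. The mouse at 0 (ILB_9578) had 0 reads, which allows up to 3. In sum 70 reads stood against 14. For Wnt9a the log2 fold change was -2.10 ± 0.40 (SE, adjusted p = 0.000543 by edgeR), 4.28-fold lower. In the Ion Torrent STAR table the treated mice were close to each other at 0.506 to 0.623 CPM, with the untreated at 1.23 to 1.67 CPM, and the log2 fold change was -1.33 ± 0.29 (adjusted p = 0.00137 by edgeR).

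Wnt9b, the ligand of the central vein endothelium (chr11:103588678-103611135, minus strand), had the fewest reads of the 10 in the untreated mice, 53 in sum. The treated mice had 24, more than for Wnt2 or Wnt9a. Its level was 0.832, 1.36, 1.03, 0.80 and 0.557 CPM in the untreated mice and 0.569, 0.493, 0.596, 0.297 and 0.403 CPM in the treated mice. The lowest untreated mouse (UNT_9584) lay below 2 treated mice, so the groups overlapped. A log2 fold change of -0.95 ± 0.33 (SE, adjusted p = 0.0293 by edgeR) was fitted, 1.93-fold lower. This call was lost with DESeq2 (adjusted p = 0.0681), with the rank-sum test (adjusted p = 0.0520), in the Ion Torrent STAR table (edgeR, adjusted p = 0.0938) and without any of 4 mice: the adjusted p by edgeR was 0.0702 without ILB_9582, 0.0619 without ILB_9583, 0.0897 without UNT_9575 and 0.0585 without UNT_9576. The value was negative in all 6 tables, and 5 of them called it lower.

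Rspo3, the R-spondin of the central vein (chr10:29172915-29255673, minus strand), was not called. It stood at 4.49, 4.6, 3.26, 3.82 and 5.02 CPM in the untreated mice and at 4.65, 4.44, 3.57, 4.26 and 3.62 CPM in the treated mice. The groups overlapped throughout. Rspo3 had a log2 fold change of -0.04 ± 0.17 (SE, adjusted p = 0.890 by edgeR), with a 95% interval of -0.37 to 0.29. Its sign differed between platforms, with 3 Illumina tables below 0 and 3 Ion Torrent tables above 0, and 0 of the 6 tables called it.

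Lgr5, the R-spondin receptor that marks hepatocytes at the central vein (chr10:114887367-115024836, minus strand), was present at 11.1, 6.98, 5.49, 4.62 and 5.39 CPM in the untreated mice. In the treated mice it was at 1.23, 1.38, 2.08, 1.78 and 1.01 CPM. The highest treated mouse was below the lowest untreated mouse by a wide margin. Lgr5 had a log2 fold change of -2.16 ± 0.28 (SE, adjusted p = 1.50e-05 by edgeR), 4.46-fold lower, and 389 reads stood against 76. It ranged from -2.27 to -2.07 over the 6 tables. Its closest other transcript, that of Lgr6, shared 67.4% of 1074 aligned bases, and Lgr6 itself had too few reads to be tested. Lgr4, the related receptor that hepatocytes carry throughout the lobule, was at 67.6 CPM in the treated and 74.4 CPM in the untreated mice, with a log2 fold change of -0.14 ± 0.13 (adjusted p = 0.406 by edgeR).

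Rnf43 and Znrf3 encode related membrane ubiquitin ligases that act on Frizzled receptors. Rnf43 (chr11:87476224-87549041, plus strand) was at 21.3, 33.2, 21.0, 18.3 and 20.6 CPM in the untreated mice and at 13.9, 5.22, 6.75, 5.75 and 10.1 CPM in the treated mice. UNT_9575 was high among the untreated, and no treated mouse reached the untreated range. For Rnf43 the log2 fold change was -1.45 ± 0.24 (SE, adjusted p = 0.000187 by edgeR), 2.74-fold lower. Znrf3 (chr11:5176327-5344850, minus strand) was at 15.5, 13.5, 11.2, 19.1 and 19.6 CPM in the untreated mice and at 12.1, 9.56, 12.4, 10.7 and 8.96 CPM in the treated mice. Here the groups overlapped, since the untreated mouse UNT_9576 lay below 2 treated mice. Its log2 fold change was -0.55 ± 0.16 (SE, adjusted p = 0.0118 by edgeR), 1.47-fold lower. The call was lost in the Ion Torrent STAR table without the library of UNT_9584 (adjusted p = 0.1005 by edgeR). The closest stretch of the 2 transcripts was 126 aligned bases at 77.8% identity.

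Axin2, a scaffold of the complex that degrades β-catenin and a standard readout of the pathway (chr11:108781663-108812097, plus strand), was at 6.24, 6.47, 4.89, 1.95 and 6.22 CPM in the untreated mice. The treated mice had 5.78, 1.58, 4.77, 2.48 and 2.92 CPM. Among the untreated, UNT_9580 stood far below the other 4, and the treated mice spread over most of the same range. Axin2 had a log2 fold change of -0.55 ± 0.34 (SE, adjusted p = 0.208 by edgeR), with a 95% interval of -1.22 to 0.11. Its value was the same as that of Znrf3 to 2 decimals, with an SE more than 2 times as large (the coefficient of variation was 36.7% for untreated Axin2 and 22.7% for untreated Znrf3). Without UNT_9580 the log2 fold change was -0.76 and the gene was called (adjusted p = 0.0478 by edgeR). All 6 tables gave a negative value, from -0.58 to -0.44, and 0 of the 6 called it. In the Ion Torrent STAR table the value moved from -0.44 to -0.20 without the library of UNT_9584 (adjusted p = 0.663 by edgeR).

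Tbx3, a T-box transcription factor of pericentral hepatocytes (chr5:120120678-120134733, plus strand), had the widest spread among untreated mice (coefficient of variation 42.1%), at 26.6, 32.2, 18.6, 10.04 and 35.6 CPM. It was at 34.0, 19.1, 20.0, 18.7 and 25.2 CPM in the treated mice. No shift between the groups was visible beside that spread. The log2 fold change was -0.07 ± 0.27 (SE, adjusted p = 0.883 by edgeR), with a 95% interval of -0.60 to 0.46, and its sign turned without UNT_9584 (0.10).

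Glul, glutamine synthetase, which takes up ammonia in the last row of hepatocytes before the central vein (chr1:155747074-155756853, plus strand), had the most reads of the 10. It stood at 859, 752, 818, 657 and 768 CPM in the untreated mice and at 730, 846, 869, 967 and 1020 CPM in the treated mice. Of the treated mice, 3 lay above all untreated ones and 2 within their range. The log2 fold change was 0.20 ± 0.11 (SE, adjusted p = 0.162 by edgeR), with a 95% interval of -0.02 to 0.42. It was positive in all 6 tables (0.10 to 0.20), and 0 of the 6 called it. Scaling moved this value, which was 0.07 with library totals alone. Over 22 alternatives of test, scaling, filter, mice and table the value lay between 0.019 and 0.26. Leaving out TMM moved the median over 11929 well-covered genes from 0.00 to -0.12 on the log2 scale.

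**Figure D2:**
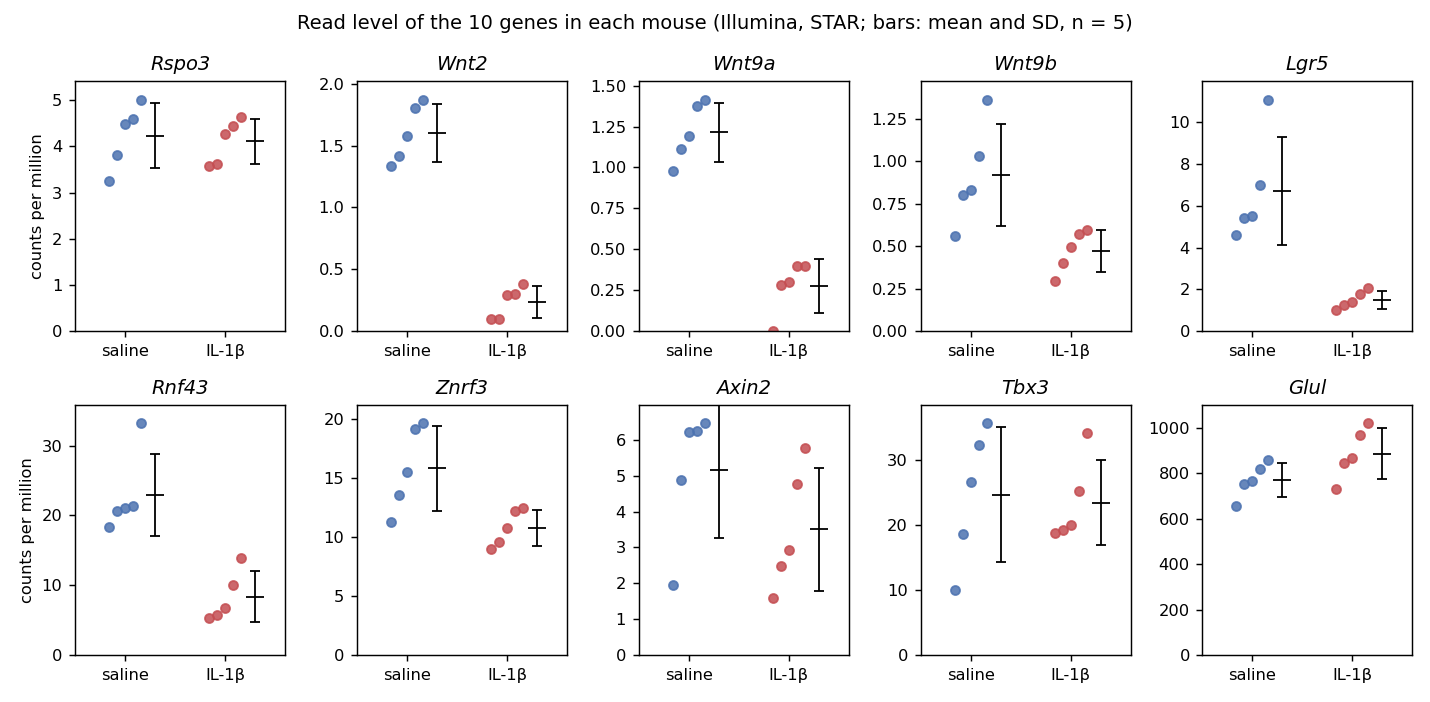
CPM of the 10 genes in each mouse of the Illumina STAR table, with each panel's linear axis starting at 0 and the mean ± SD of 5 mice beside the points. The treated mice (red) lie below all untreated mice (blue) in the panels for Wnt2, Wnt9a, Lgr5 and Rnf43, and the groups overlap in the other 6.

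Reads could be shared at a few of these loci. Exons of Glul overlap those of 5830403L16Rik, exons of Axin2 those of Gm11670 and exons of Tbx3 those of Gm2301, each on the opposite strand. Both library kits kept the strand, but whether counting used it is not given in the sources used here, so reads from these pairs cannot be told apart.

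The other 5 tables served as a check on the members. With Ion Torrent and STAR, 5 of the 10 genes were called lower and 0 higher, against 21.8% and 20.3% of all genes tested. There Wnt2 had a log2 fold change of -2.21 ± 0.41 (adjusted p = 0.000315 by edgeR), Lgr5 of -2.07 ± 0.31 (adjusted p = 4.34e-05) and Rnf43 of -1.90 ± 0.24 (adjusted p = 7.00e-06). The Ion Torrent library of UNT_9584 followed its Illumina partner less than the other 9 pairs did, with a correlation of deviations from the group mean of 0.249 against 0.591 to 0.736 over 10543 genes. Without it, 4 of the 10 genes were called lower in that table, namely Lgr5, Rnf43, Wnt2 and Wnt9a, beside 20% of all genes. Lgr5, Rnf43, Znrf3, Wnt2 and Wnt9a were called lower in all 6 tables and Wnt9b in 5 of them. The share of all genes called lower in all 6 tables was not counted, so this tally has no background beside it. In the other 4 tables the share of all genes called lower was 23.9% (Illumina, GSNAP), 24.4% (Illumina, STAR followed by Bowtie2), 23.9% (Ion Torrent, GSNAP) and 24% (Ion Torrent, STAR followed by Bowtie2). The tables of 1 platform share libraries and all 6 share mice, so they are not independent.

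Whether a treatment effect differed between platforms was tested in both STAR tables at once, 20 libraries in all, through the platform-by-treatment term of an edgeR fit that kept the mouse as a block. The term was called for 0 of the 10 genes, and for 0.00642% of all genes tested (1 gene). The count over all genes was 10 without UNT_9584, 2 without UNT_9574, 10 with GSNAP and 12 with STAR followed by Bowtie2, and it was 0 of the 10 members in these fits too. At an unadjusted p below 0.05 stood 1 of the 10 genes, beside 1090 of all 15578. This was Rnf43, whose log2 fold change was lower in Ion Torrent than in Illumina by -0.43 ± 0.14 (SE, adjusted p = 0.653 by edgeR). For Wnt9a the difference was 0.79 ± 0.54 (adjusted p = 0.768 by edgeR).

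**Figure D3:**
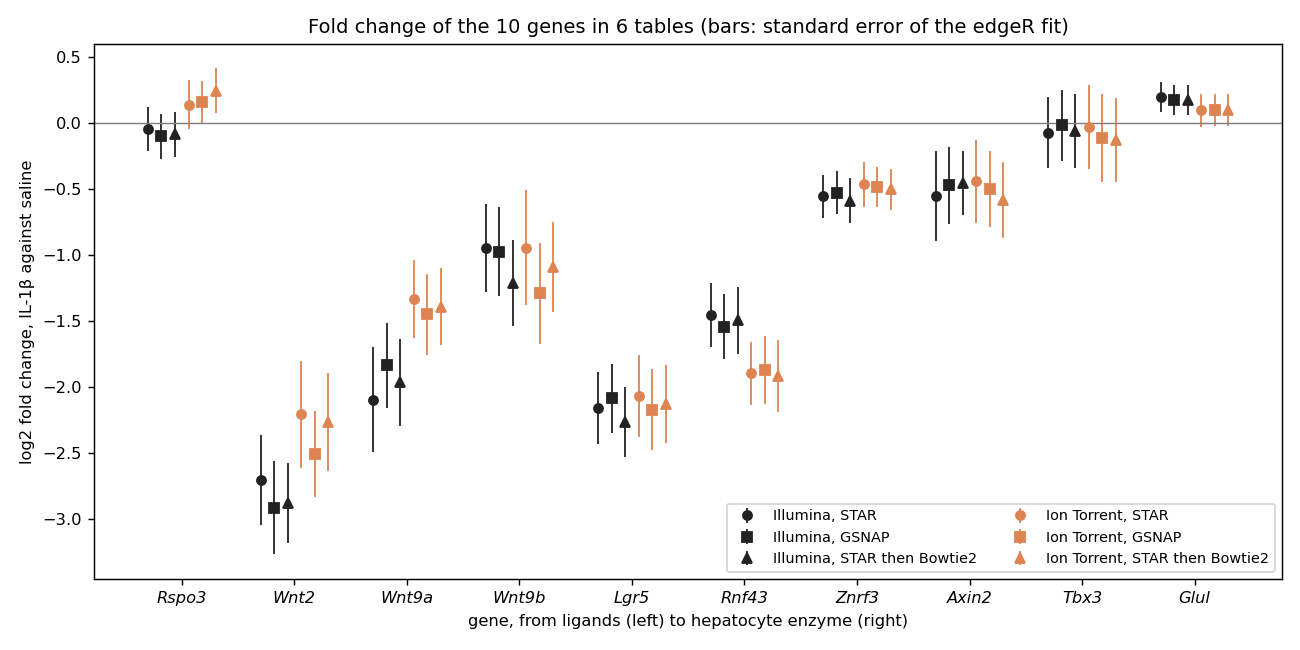
Log2 fold change of treated against untreated mice for each gene in the 6 tables (black: Illumina, orange: Ion Torrent; circles STAR, squares GSNAP, triangles STAR followed by Bowtie2), with bars for the SE of the edgeR fit. Wnt2, Wnt9a, Wnt9b, Lgr5, Rnf43 and Znrf3 lie below 0 in every table, as do Axin2 and Tbx3, which were not called in any. Rspo3 lies below 0 with Illumina and above 0 with Ion Torrent.

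The rest of the pathway was read from lists of 79 other genes, of which 47 were tested. With Illumina and STAR, 16 of the 47 were called lower and 9 higher by edgeR, beside 22.9% lower and 22.7% higher over all genes tested. The median log2 fold change was -0.37 beside 0.00 over all genes. The Ion Torrent STAR table had 20 of the 47 called lower and 7 higher (median -0.39), beside 21.8% and 20.3% of all genes. Of the 19 other Wnt and R-spondin genes only 4 had enough reads to be tested (Wnt4, Wnt5a, Wnt5b and Rspo1). Of these Wnt5b, a ligand of the β-catenin-independent branch, was called lower (log2 fold change -0.84 ± 0.30, adjusted p = 0.0314 by edgeR). This call was lost without any of 5 mice (UNT_9574, UNT_9575, UNT_9576, ILB_9577 or ILB_9583) and in the Ion Torrent STAR table (adjusted p = 0.0613 by edgeR). There 2 of the 4 were called lower and 0 higher, beside 21.8% and 20.3% of all genes tested. They were Wnt4 (-1.31, adjusted p = 0.00584 by edgeR) and Rspo1 (-2.19, adjusted p = 0.0298), which were not called with Illumina and STAR. Wls, the carrier that takes Wnt proteins to the cell surface, was called lower with Illumina and STAR. It was at 2.06 ± 0.755 CPM in the treated and 4.40 ± 1.04 CPM in the untreated mice (log2 fold change -1.09 ± 0.26, adjusted p = 0.00305 by edgeR).

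Among 11 receptors tested, 5 were called lower and 1 higher, with a median of -0.41, beside 22.9% lower and 22.7% higher over all genes. Fzd4 had the largest change, with 2.92 to 5.62 CPM in the treated and 21.3 to 38.0 CPM in the untreated mice and a log2 fold change of -2.85 ± 0.20 (adjusted p = 4.50e-08 by edgeR). Fzd8 (-1.94 ± 0.31, adjusted p = 0.000130) and Fzd7 (-1.49 ± 0.31, adjusted p = 0.00104) fell as well, as did Fzd1 (-0.71) and the receptor Ryk (-0.47), picked out after their values were seen. Ror1, also picked out afterwards, rose (0.86, adjusted p = 0.00446 by edgeR). The co-receptors Lrp5 and Lrp6, needed for the β-catenin branch, were not called (log2 fold changes 0.19 and 0.26, and -0.20 and 0.24 with Ion Torrent), and were likewise named after their values were seen. Of 4 Wnt inhibitors tested, secreted or at the cell surface, Frzb was called higher (1.32 ± 0.26, adjusted p = 0.000682 by edgeR). The other 3 (Dkk3, Sfrp1 and Kremen1) were not called. With Ion Torrent and STAR, Frzb was again called higher (1.18, adjusted p = 0.00272 by edgeR). Kremen1, named after its value was seen, was called lower there (-0.50, adjusted p = 0.0131 by edgeR).

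Of 19 intracellular transducers, 5 were called lower and 7 higher, with a median of 0.26, beside 22.9% lower and 22.7% higher over all genes tested. Ctnnb1, β-catenin itself, was at 286 CPM in the treated and 245 CPM in the untreated mice (log2 fold change 0.22 ± 0.08, adjusted p = 0.0401 by edgeR, and 0.0515 in the Ion Torrent STAR table). Axin1, the constitutive relative of Axin2, rose (0.50 ± 0.09, adjusted p = 0.000244 by edgeR), with all treated above all untreated mice in all 6 tables. The TCF factors Tcf7l1 (-1.42) and Tcf7l2 (-0.71), picked out here after their values were seen, were both called lower.

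Of 7 other target genes of the pathway that were tested, 4 were called lower and 0 higher, beside 22.9% and 22.7% of all genes, and the median was -1.44. The list as a group was not tested. They were Tnfrsf19, a receptor of the TNF family (log2 fold change -2.29 ± 0.28), Notum, a secreted enzyme that inactivates Wnt proteins (-2.05 ± 0.27), Nkd1, a feedback inhibitor (-1.44 ± 0.25), and Tcf7, a TCF factor (-0.91 ± 0.20), with adjusted p by edgeR from 8.98e-06 to 0.00166. At an unadjusted p below 0.05 none was higher, and with the rank-sum test the counts were also 4 and 0. Notum, at 5.61 CPM in the treated and 23.3 CPM in the untreated mice, is expressed by hepatocytes at the central vein and was separated in all 6 tables, like the other 3. Ccnd1, the cyclin, was not called (0.06).

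**Figure D4:**
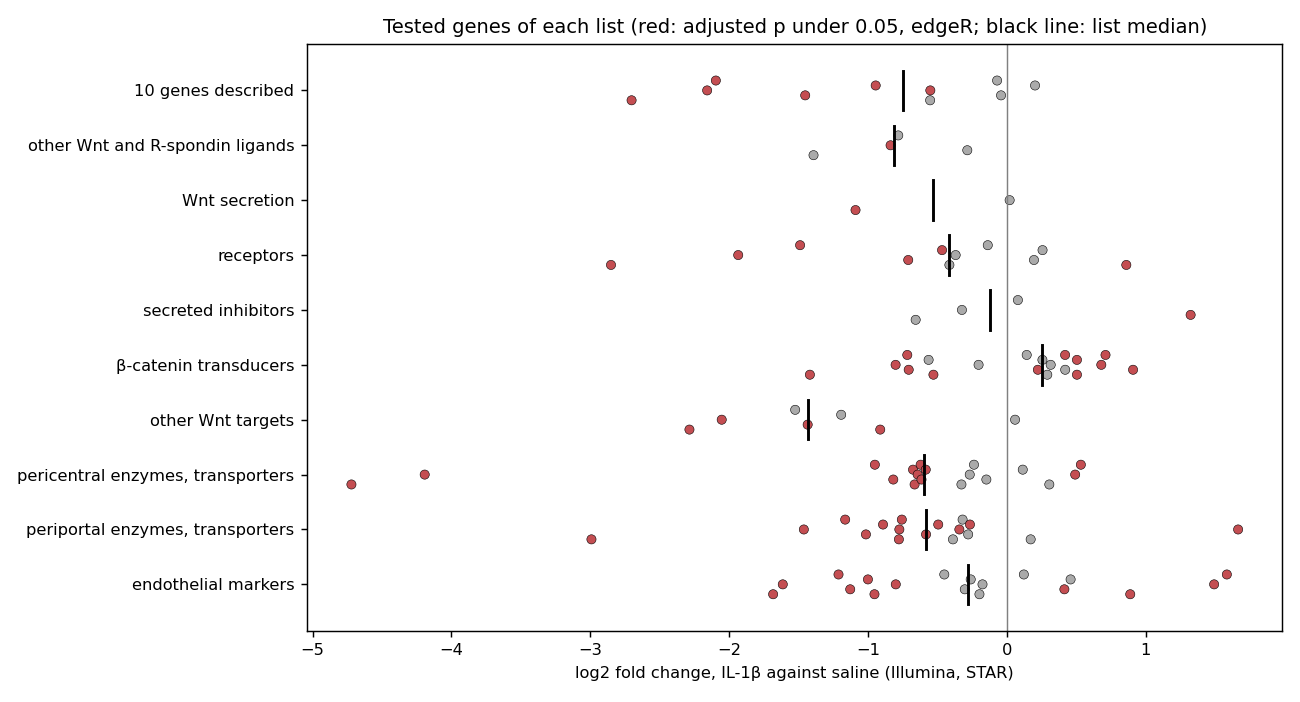
Log2 fold change of each tested gene in the Illumina STAR table, by list, with genes called by edgeR in red and each list's median as a black line. The medians are -0.75 for the 10 genes, -1.44 for the other Wnt targets and 0.26 for the β-catenin transducers.

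Enzymes and transporters of the pericentral and of the periportal hepatocytes were compared with the members. Of 18 pericentral genes, 10 were called lower and 2 higher (median -0.60), and of 17 periportal genes 12 were lower and 1 higher (median -0.58), beside 22.9% lower and 22.7% higher over all genes tested. Both sides of the lobule thus had lower medians than the 0.00 of all genes, with values that lie close together, and the difference between the lists was not tested. Of the pericentral genes that were called, separated in all 6 tables and averaged 50 counts or more, the lowest were Cyp7a1, the rate-limiting enzyme of bile acid synthesis (-4.72 ± 0.60), the nuclear receptor gene Nr1i3 (-4.19 ± 0.21) and the transporter Slco1b2 (-0.95 ± 0.14). The β-catenin-dependent cytochromes Cyp2e1 (-0.67 ± 0.11, adjusted p = 0.000183 by edgeR) and Cyp1a2 (-0.64 ± 0.16, adjusted p = 0.00389) fell as well. Oat, ornithine aminotransferase (-0.15, adjusted p = 0.490 by edgeR), and Slc1a2, a glutamate transporter (-0.27, adjusted p = 0.0593), both found with Glul in the innermost hepatocytes, were not called with Illumina. In the Ion Torrent STAR table Slc1a2 was called lower (-0.29, adjusted p = 0.0261 by edgeR) and Oat was not (adjusted p = 0.489). On the periportal side, G6pc, which releases glucose from its phosphate (-2.99 ± 0.46), Hal, which breaks down histidine (-1.46 ± 0.18), and the aldehyde dehydrogenase gene Aldh1b1 (-1.16 ± 0.22) fell, and the serine dehydratase gene Sds rose (1.66 ± 0.23).

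The members were also set against the pericentral list within each library. Per 1000 CPM of the summed pericentral genes Glul stood at 84.0 to 101 CPM in the treated and 44.3 to 58.9 CPM in the untreated mice, with no overlap, while its own CPM overlapped between the groups. The summed list was at 8341 to 10606 CPM in the treated and 14046 to 17330 CPM in the untreated mice, so this ratio follows the list as well as Glul. Nor was the shift particular to Glul, since Rspo3 was at 0.342 to 0.534 CPM in the treated and 0.231 to 0.308 CPM in the untreated mice on the same scale. In the Ion Torrent STAR table both genes were again higher without overlap, with ratios of the means of 1.57 for Glul and 1.63 for Rspo3. Lgr5, Wnt2 and Wnt9a stayed lower without overlap in both tables, and Rnf43 in the Ion Torrent STAR table but not in the Illumina one.

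Endothelial cells are the main source of the ligands, so endothelial markers were read beside them. Of 18 markers, 7 were called lower and 4 higher by edgeR (median -0.28), beside 22.9% and 22.7% of all genes tested, so the share called higher was near that of all genes. The summed level was 257 to 386 CPM in the treated and 295 to 461 CPM in the untreated mice. Kdr, the VEGF receptor (-1.68 ± 0.21), and the sinusoidal genes Clec4g (-1.21 ± 0.20) and Ehd3 (-1.13 ± 0.14) fell, while Lyve1 (1.49 ± 0.21) and the junction gene Cdh5 (0.89 ± 0.17) rose. Pecam1, a general endothelial marker named after its value was seen, was not called (-0.20, adjusted p = 0.348 by edgeR). Per 1000 CPM of the summed markers in the same library, Wnt2 was at 0.370 to 0.981 CPM in the treated and 3.23 to 5.34 CPM in the untreated mice, and Wnt9a at 0 to 1.54 CPM and 2.58 to 3.77 CPM, so both stayed apart on that scale. In the Ion Torrent STAR table Wnt9a stayed apart too, and Wnt2 overlapped (0.183 to 3.48 against 3.22 to 7.09 CPM). Wnt9b overlapped in both tables. Of the 18 markers themselves, 10 were called lower and 3 higher with Ion Torrent and STAR (median -0.46). There 21.8% of all genes tested were called lower and 20.3% higher.

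Markers of other cell types were read beside the members. All 7 neutrophil markers tested of 8 listed were called higher (median log2 fold change 5.29), with a summed level of 52.7 to 117 CPM in the treated and 2.13 to 6.24 CPM in the untreated mice, and Ly6g had too few reads to be tested. The counts of the other lists are to be read beside the 22.9% lower and 22.7% higher of all genes tested. In the Illumina STAR table the summed levels of Kupffer, stellate, lymphocyte and cholangiocyte markers overlapped between the groups. With Ion Torrent and STAR the lymphocyte markers did not overlap (1.79 to 2.64 CPM in the treated and 2.82 to 5.15 CPM in the untreated mice). Of 8 Kupffer cell markers 3 were lower and 1 higher (79.2 to 182 CPM in the treated and 142 to 245 CPM in the untreated mice), of 12 stellate cell markers 3 were lower and 1 higher (300 to 452 CPM and 382 to 496 CPM), of 5 lymphocyte markers tested 1 was lower (0.906 to 2.07 CPM and 1.42 to 4.33 CPM) and of 5 cholangiocyte markers tested 2 were higher (41.8 to 73.8 CPM and 46.0 to 63.2 CPM). Of 8 hepatocyte markers (median 0.05), 1 was lower (Alb, -0.53 ± 0.13) and 3 were higher, among them Hnf4a (1.05 ± 0.09) and Tat (1.51 ± 0.22). Alb, the albumin gene of hepatocytes, was at 54567 CPM in the treated and 78855 CPM in the untreated mice, and the summed hepatocyte markers at 80412 to 91077 CPM and 94054 to 115414 CPM, with no overlap. Their part in the values of the 10 genes was not tested.

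Mice of 1 group also differed among themselves in several members at once. Among the untreated mice of the Illumina STAR table, UNT_9580 had the lowest value for 7 of the 10 genes (Glul, Axin2, Lgr5, Tbx3, Rnf43, Wnt2 and Wnt9a). In its Ion Torrent library it was the lowest for 6 of the 10 (Glul, Axin2, Lgr5, Tbx3, Rnf43 and Wnt9b). Among the treated mice, ILB_9577 had the highest Axin2, Tbx3 and Rnf43 on both platforms. Other positions differed between platforms. In Ion Torrent UNT_9574 was the lowest for Wnt2 and Wnt9a. ILB_9577 had the highest Wnt2 with Illumina and the lowest with Ion Torrent. As both libraries of a mouse came from the same RNA, positions found on both platforms are repeats of the measurement and not of the animal. The share of all genes for which a mouse stood lowest or highest was not counted, so these tallies have no background beside them.

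For Tbx3, Glul and Axin2, 3 of the 4 members that were not called (Rspo3 was not looked up), the genes with the most similar course over the 10 mice were looked up in the Illumina STAR table among the 9277 genes that averaged 50 counts or more, as a description. For Tbx3 this was Rtp3, with r = 0.89 and rho = 0.89 for log2 CPM, and r = 0.85 without the 2 farthest mice. In the Ion Torrent STAR table r was 0.81. Cnih4 and Ptrh2 came next, at r = 0.88 for both, with 0.12 and 0.46 in Ion Torrent. For Glul, Klf3 came first (r = 0.89, rho = 0.76, 0.72 without the 2 farthest mice, 0.77 in Ion Torrent), then Gtf2a2 and Taf3 (r = 0.85 for both, 0.28 and 0.06 in Ion Torrent). For Axin2 the first was Rbks (r = 0.90, rho = 0.83, 0.74 without the 2 farthest mice, 0.42 in Ion Torrent), then Fam40a and Wdr73 (r = 0.86 and 0.85, with 0.48 and 0.57). Only for Rtp3 and Klf3 was r above 0.6 in the Ion Torrent libraries of the same mice.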

How the data were processed

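The authors aligned the reads to mm9 with STAR 2.5.1b, GSNAP or STAR followed by Bowtie2 2.2.9, dropped rRNA and mitochondrial reads, and with PORT drew libraries of like size within each table. The deposited values are counts of reads per gene. Whether 1 count is a read or a pair is not given in the sources used here. Tables were fitted separately (R 4.3.3, edgeR 4.0.16 quasi-likelihood test, TMM, Benjamini-Hochberg over 15578 genes). Alternatives were limma-voom 3.58.1, DESeq2 1.42.0, the rank-sum test (on counts without TMM), other scaling and filters, and leaving out each mouse. Adding the Ion Torrent STAR table without UNT_9584 and the ratios to summed markers was decided after seeing the data. The members and gene lists were chosen with earlier results of these data known.

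All 60 count columns were used. The platform-by-treatment term had the mouse as a block, since titles pair the libraries, and pairs correlated at 0.249 to 0.736. CPM are counts scaled to a common library total with TMM factors. An SE is the log2 fold change divided by the root of the F statistic, and 95% intervals on the log2 scale are normal. The labels do not name litters or cages. Each p-value of a single table judges the effect against the spread between mice of 1 group. With the mouse as a block, the platform-by-treatment term is judged against differences between the libraries of a mouse. Totals of 10568530 to 16439683 over the tables leave genes with few reads imprecise. Positions and exon lengths come from GENCODE vM1 on NCBIM37, which is not the annotation release of the authors. Transcripts were compared with BLAST 2.17.0. Figures used Python 3.11.15 and matplotlib 3.10.9. Named list genes were the up to 3 highest and 3 lowest among those called and separated in all 6 tables. Their mean count had to be at least 50. Ctnnb1, Cyp2e1, Cyp1a2, Oat, Slc1a2, Wls and Lgr4 were named in any case. All other list genes in the text were named after seeing their values, whether or not they are marked there. On simulated data of 15578 genes with 200 changed by 1.5 on the log2 scale, edgeR recovered 195 with 21 false calls, and the rank-sum test 0. That 0 was fixed by the design and does not measure the power of the rank-sum test on the real tables. In groups this small its lowest possible p cannot pass the adjustment when only 200 of 15578 genes change. In the Illumina STAR table, where many more genes changed, it called 24.3% of all genes lower and 13.8% higher.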

Additional observations from a re-analysis of the deposited data

Results flagged for a closer look

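Each group of 5 mice was examined for a highest or lowest mouse far from the others, by Dixon's test at the 95% level, for the 10 genes in both STAR tables. Of 40 groups, 2 were marked, and chance marks about 1 in 20. Wnt9a was at 0 CPM in the treated mouse ILB_9578 on Illumina, where the next mouse had 0.284 CPM. In the Ion Torrent library of the same mouse it was at 0.506 CPM on 6 reads. Rnf43 was at 33.2 CPM in the untreated mouse UNT_9575 on Illumina, and the next mouse was at 21.3 CPM. That mouse was also the highest on Ion Torrent (43.5 CPM), with the next at 35.2 CPM.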

How the results depend on the processing

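Lgr5, Rnf43, Znrf3, Wnt2 and Wnt9a kept their direction and their call under each of the 22 alternatives of test, scaling, filter, mice and table, and Glul kept its direction without a call. Among the alternatives added after the data were seen, Znrf3 lost its call in the Ion Torrent STAR table without UNT_9584 (log2 fold change -0.39, adjusted p = 0.1005 by edgeR). The count of members called lower was 5 to 7 when 1 mouse was left out. The share of all genes called lower in those fits, or keeping a call under all alternatives, is not given here. These counts thus have no background beside them. Wnt9b lost its call under 7 of the 22 alternatives. Tbx3, never called, turned positive with limma-voom (0.023) and in the Ion Torrent STAR table without UNT_9584 (0.26), and lay between -0.27 and 0.10 when 1 mouse was left out. Rspo3, never called, turned positive in the Ion Torrent tables (0.14 with STAR, 0.16 with GSNAP, 0.25 with STAR followed by Bowtie2, and 0.033 with STAR without UNT_9584), and lay between -0.12 and 0.023 when 1 mouse was left out. The number of pericentral genes called higher, 2, was 0 with the rank-sum test and 1 without TMM, and 1 to 2 when 1 mouse was left out. The number of periportal genes called higher, 1, was 2 in the Ion Torrent STAR table. The cause was not tested.

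The platform-by-treatment term was called for 0 of the 10 genes with the mouse as a block, and also for 0 with no replicate block, where 244 of all genes had an unadjusted p below 0.05 against 1090 with the block. Some terms that were never called changed sign. Wnt9b was 0.016 with no replicate block and 0.11 with STAR followed by Bowtie2, Axin2 was -0.018 with GSNAP and -0.14 with STAR followed by Bowtie2, Tbx3 was -0.085 and -0.068 with these, and Lgr5 was -0.057 with GSNAP. When 1 mouse was left out, Wnt9b lay between -0.40 and 0.25, Lgr5 between -0.10 and 0.35, Wnt2 between -0.15 and 1.03 and Znrf3 between -0.055 and 0.18. Few reads limit the values of the ligands. In the treated and untreated groups of the Illumina STAR table Wnt2 had 12 and 92 reads, Wnt9a 14 and 70, and Wnt9b 24 and 53.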
